A study of Mus musculus with 6 samples.

Results

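The 4 Hox clusters of the mouse genome were examined as one set of genes. All 39 protein-coding Hoxa, Hoxb, Hoxc and Hoxd genes were taken, and the cytosines were those between the outermost genes of each cluster plus 5 kb on either side. In build mm10 the regions were chr6:52150367-52265880 for Hoxa, chr11:96189316-96373254 for Hoxb, chr15:102916131-103041856 for Hoxc and chr2:74663225-74770142 for Hoxd. A cytosine was kept where all 6 libraries held at least 10 reads over it, which left 619 Hox cytosines among 232840 in all on the autosomes and the X chromosome. Hoxa held 173 of them, Hoxb 167, Hoxc 128 and Hoxd 151. Each cytosine was assigned to the shortest Hox gene that contains it, or otherwise to the Hox gene with the nearest end. Of 38 genes followed one by one, 34 had at least 1 assigned cytosine and 611 cytosines belonged to them. Hoxa4, Hoxa6, Hoxc11 and Hoxd4 had none.

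Hox genes encode homeodomain transcription factors that give cells their position along the body axis. They lie in clusters in which the order of the genes follows the order of their expression from head to tail, and genes at the same place in different clusters form paralogue groups, numbered from the anterior end. In embryonic stem cells the clusters are known as large domains of Polycomb repression that are rich in CpG islands and carry little DNA methylation.

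The study measured DNA methylation by reduced representation bisulfite sequencing (RRBS), in which the enzyme MspI cuts at CCGG and bisulfite converts unmethylated cytosines. The lines were androgenetic haploid embryonic stem cells (AG-haESCs), haploid cells whose only chromosome set comes from the father, of strain C57BL/6, grown on feeder cells in ES medium with the inhibitor pair 2i. The 3 double knockout (DKO) lines carry deletions of the H19 DMR and the IG-DMR, regions that control imprinted domains on chromosomes 7 and 12. DKO line 1 bears the line name AGH-4 and was at passage 32, DKO line 2, titled OG3-2 and counted here under the name OG3, was at passage 31, and DKO line 3, named AGH-2, was at passage 29. The 2 wild-type (WT) lines were OG3 at passage 31, called WT line 1, and AGH-2 at passage 18, called WT line 2. The names OG3 and AGH-2 thus each occur in 1 DKO and 1 WT line. Round spermatids (RS) from testis, the haploid germ cells after meiosis, were the control with 1 library. The labels do not say whether the lines came from separate embryos, so a p-value measures only the spread between these libraries, which may be technical.

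The files of the lines held between 197259540 and 255240416 reads summed over cytosines, and that of the spermatids 293399609. The median Hox cytosine had 319 to 567 reads per library. The labels give no coordinates of the deletions, so windows were placed at textbook distances from H19 and Meg3. Between 2 and 4 kb before H19, the 3 DKO libraries had no read, the WT libraries 22 and 23, and the spermatids none. Between 11 and 16 kb before Meg3, around the IG-DMR, DKO line 3 had 62 reads, WT line 1 had 164, the spermatids had 1 and the other libraries none. With few reads and no known bounds, the labelled deletions could not be checked. Methylation levels are methylated reads over all reads at a cytosine. Intervals are 95% Wilson intervals, which cover counting error only, since PCR copies of a molecule are counted as reads.

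The promoters on which the results below turn are shown from 250 bases before to 50 bases after the gene start, 5′ to 3′ on the strand of the gene, as given by RefSeq for GRCm38.p6. Capitals mark the measured cytosines, and a capital G marks one measured on the opposite strand. Hoxd12 and Hoxa11, genes of the posterior body and the limb, Hoxa11os, the antisense transcript of Hoxa11, and Hoxd9 were chosen because single cytosines in them were methylated in some lines and unmethylated in the spermatids.
Hoxd12, chr2:74674763-74675062, plus strand: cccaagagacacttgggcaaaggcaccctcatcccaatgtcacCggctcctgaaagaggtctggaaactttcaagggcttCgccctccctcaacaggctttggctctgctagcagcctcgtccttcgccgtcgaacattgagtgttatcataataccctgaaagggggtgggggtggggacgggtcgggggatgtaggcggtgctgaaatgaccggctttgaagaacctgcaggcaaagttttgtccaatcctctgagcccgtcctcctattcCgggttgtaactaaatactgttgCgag
Hoxa11, chr6:52245761-52246060, minus strand: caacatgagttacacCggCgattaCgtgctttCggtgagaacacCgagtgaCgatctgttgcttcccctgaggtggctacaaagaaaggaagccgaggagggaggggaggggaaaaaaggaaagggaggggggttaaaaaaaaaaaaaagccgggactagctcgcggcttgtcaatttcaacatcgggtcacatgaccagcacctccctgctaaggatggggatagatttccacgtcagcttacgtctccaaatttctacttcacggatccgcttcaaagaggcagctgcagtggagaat
Hoxa11os, chr6:52244993-52245292, plus strand: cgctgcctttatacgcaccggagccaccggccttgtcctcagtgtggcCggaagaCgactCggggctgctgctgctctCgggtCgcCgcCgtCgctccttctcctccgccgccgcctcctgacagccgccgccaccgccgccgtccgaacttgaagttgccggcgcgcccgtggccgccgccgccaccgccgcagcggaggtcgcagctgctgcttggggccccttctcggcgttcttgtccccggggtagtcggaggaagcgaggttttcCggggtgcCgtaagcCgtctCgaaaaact
Hoxd9, chr2:74697513-74697812, plus strand: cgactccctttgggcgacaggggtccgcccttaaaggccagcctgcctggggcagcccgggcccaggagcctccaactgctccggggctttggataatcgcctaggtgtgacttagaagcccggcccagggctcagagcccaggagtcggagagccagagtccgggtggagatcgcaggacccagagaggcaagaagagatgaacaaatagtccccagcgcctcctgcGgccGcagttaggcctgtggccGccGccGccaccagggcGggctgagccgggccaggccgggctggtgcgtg
The table held promoters for 22 of the 38 genes. Of its 24 Hox promoters, 19 held CCGG on either strand, a palindrome, against 52.8% of all 32851 promoters. The median Hox promoter had 14.5 CG dinucleotides, against 7 in all promoters.

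Methylation over the Hox clusters was low in every library. The mean level over the 619 cytosines was 2.05%, 3.33% and 2.22% in DKO lines 1, 2 and 3, 4.47% and 1.83% in WT lines 1 and 2, and 1.18% in the spermatids. All 5 lines were above the spermatids, and the median cytosine was at 0% in every library. The lines averaged 2.78% ± 1.11 (SD, n = 5). Pooled over reads the spermatid level was 0.574%, with an interval of 0.554% to 0.594%.

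Hoxa averaged 2.88% ± 0.773 in the lines and 0.339% in the spermatids, and no line overlapped the spermatid value. Hoxb averaged 2.45% ± 1.95 in the lines and 1.07% in the spermatids. Its spread came with 1 line, because WT line 1 stood at 5.79% while DKO lines 1, 2 and 3 had 2.08%, 2.21% and 0.849% and WT line 2 had 1.33%. Hoxc averaged 3.01% ± 1.33 in the lines and 2% in the spermatids. Hoxd averaged 2.84% ± 1.29 in the lines and 1.57% in the spermatids. In Hoxb, Hoxc and Hoxd the line values lay on either side of the spermatid value (n = 5 lines and 1 spermatid library).

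**Figure D1:**
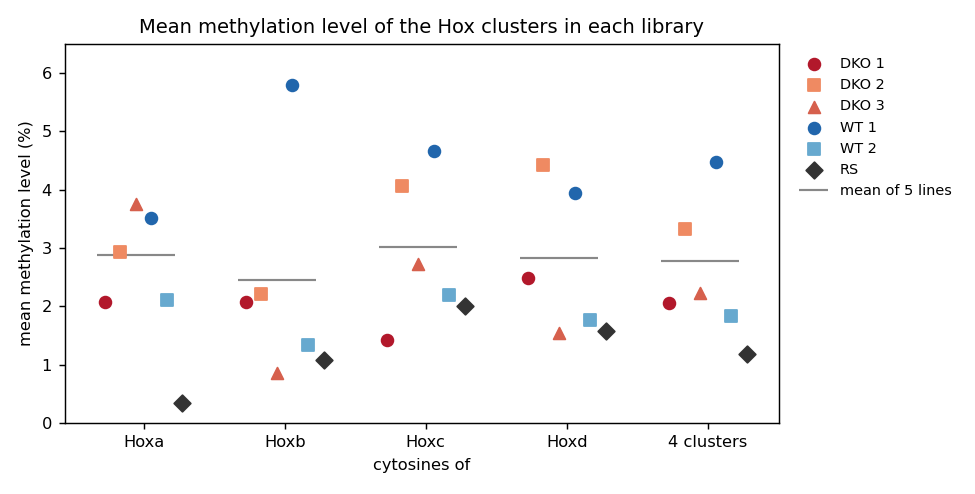
Mean methylation level (%, y axis) over the measured cytosines of each Hox cluster and of the 4 together (x axis), 1 point per library, with a grey line at the mean of the 5 lines. WT line 1 stood at 5.79% in Hoxb, and the spermatids were lowest in Hoxa, at 0.339%.

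The clusters were less methylated than the remainder of the measured genome, where the lines averaged 5.93% ± 1.66 and the spermatids 22.5%. The Hox mean minus the mean of all other cytosines was -3.07, -3.91 and -2.85 percentage points in DKO lines 1, 2 and 3, -3.62 and -2.3 points in WT lines 1 and 2, and -21.3 points in the spermatids. All 5 lines had the same sign, with a mean of -3.15 ± 0.637 points. The two-sided exact sign permutation test over the lines gave p = 0.063, the smallest its 32 sign patterns can give.

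The sign depended on what the clusters were set against. In 500 bp tiles with at least 10 measured cytosines, a stand-in for CpG islands, the 199 Hox cytosines averaged 1.07% ± 0.668 in the lines and the 89970 other cytosines 0.391% ± 0.136 (n = 5). There the Hox cytosines were higher in all 5 lines, by 0.102, 1.24 and 0.633 points in DKO lines 1, 2 and 3 and by 1.23 and 0.211 points in WT lines 1 and 2, again with the smallest exact p of 0.063. In the spermatids the dense Hox cytosines were lower, at 0.0698% against 0.629% for the others. Outside such tiles the 420 Hox cytosines differed from the others by -5.34, -7.42 and -5.26 points in DKO lines 1, 2 and 3, -7.11 and -4.1 points in WT lines 1 and 2 and -34.6 points in the spermatids, so they were lower in every library.

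The near-zero state held at most measured cytosines of each cluster. Of the 619 cytosines, 236 were at 0% in all 6 libraries, 420 were under 1% in all 6 and 465 under 10% in all 6. In the spermatids 593 were at or under 1%, or 95.8%, as were 171161 of all 232840 cytosines measured. The median of all other cytosines was 0% in every library too. The counts in all 6 libraries were not set against other cytosines. Among the genes, 28 of 34 had a spermatid mean under 1%, and 7 had a mean under 1% in all 6 libraries. The gene counts were not set against other genes either.

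Hoxa7, Hoxc5, Hoxd1, Hoxd8 and Hoxd10 kept every measured cytosine under 1% in all 6 libraries. Hoxd8 was the best covered, with 22 cytosines whose mean was 0%, 0.061% and 0.0254% in the DKO lines, 0.0132% and 0.0242% in the WT lines and 0.0416% in the spermatids. Its highest single value in any library was 0.476%. Hoxc5, around the microRNA gene Mir615, had 4 cytosines and none above 0.82%.

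At a few positions the near-zero state was broken by single cytosines at full or near-full methylation in 1 line. They are the extremes, since of 77 Hox cytosines gained in a single line, as counted below, 32 reached 25% or more. In Hoxb5, a gene of the lung and of blood progenitors, the cytosine at 96305008 on chromosome 11 was methylated in 100% of 226 reads of WT line 1, with an interval from 98.3%. DKO lines 1, 2 and 3 had 0% of 631 reads, 0% of 211 and 0.685% of 146, WT line 2 had 0% of 13 reads and the spermatids 0% of 89. Only WT line 1 was high, and the same held at 96305016 and 96305029, on 226 reads each in that line. A measured cytosine between 96305008 and 96305016 was not high. With 13 reads in WT line 2 the interval reaches 22.8%. The 9 Hoxb5 cytosines averaged 33.3% in WT line 1 and at most 0.0761% in the other lines.

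A few other genes had cytosines near full methylation in other lines. In Hoxb3, a gene of the hindbrain and of the third pharyngeal arch, the cytosine at 96340931 was methylated in all 225 reads of DKO line 1 and in none of 87, 1268, 361 and 299 reads of DKO lines 2 and 3 and WT lines 1 and 2, or of 246 spermatid reads. Close by, 96340952 stood at 27.2% in DKO line 3 and at 0% in the other 5 libraries. In Hoxa9, a regulator of blood progenitors, the cytosine at 52224351 on chromosome 6 was at 100% of 59 reads in DKO line 3, at 0% in the other lines and at 0% in the spermatids. Its neighbour at 52224359 was at 100% in DKO line 3, at 25.2% in WT line 2 and at 0% in the other 4 libraries. Near Hoxc6, 448 bases outside the gene, 103012330 on chromosome 15 was at 93.8% in DKO line 3, on 16 reads with an interval of 71.7% to 98.9%, and at 0% elsewhere. No line was high at all of these sites.

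**Figure D2:**
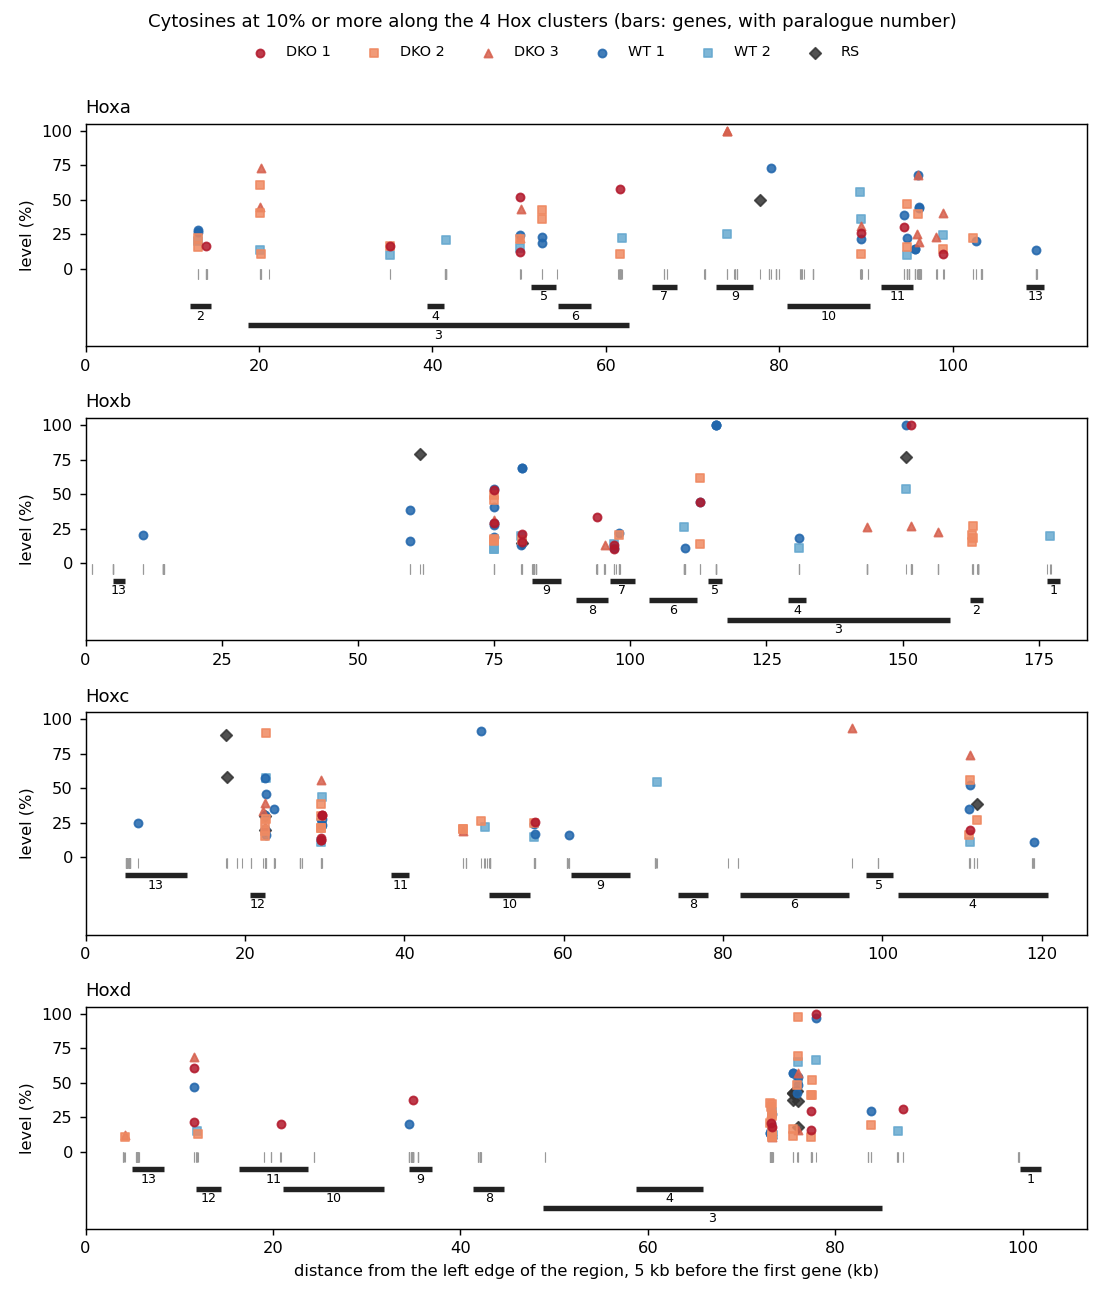
Level (%, y axis) of each Hox cytosine at 10% or more, by library, against distance from the left edge of each region (kb, x axis), with grey ticks for all cytosines assigned to the 38 genes and black bars for the genes with their paralogue numbers. Most ticks carry no point. In Hoxa9, Hoxb5 and Hoxb3 each cytosine near 100% is so in 1 line. In Hoxd3, 74741124 is near 100% in both DKO line 1 and WT line 1, at 99.4% and 97.1%.

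Counted over all cytosines at or under 1% in the spermatids, 132 of 593 Hox cytosines reached 10% in at least 1 line, which is 22.3%, against 10% of all such cytosines measured. A gain in a single line, with 1 line at 10% or more and the other lines under 5%, was seen at 77 Hox cytosines, or 13%, against 4.91% of all. Sharing by 3 or more lines was seen at 24, or 4.05%, against 2.02%. By line, the single-line gains numbered 12, 19 and 10 in DKO lines 1, 2 and 3 and 26 and 10 in WT lines 1 and 2. WT line 1 and DKO line 2, the lines named OG3, had the most, as they did among all measured cytosines, where the shares with such a gain were 0.672%, 1.37% and 0.637% in the DKO lines and 1.63% and 0.602% in the WT lines. The Hox shares and those of all cytosines were not matched for density of measured cytosines. The part of density and of the shared line names in these counts was not tested.

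By cluster, the single-line gains made up 14.1% of eligible cytosines in Hoxa, 16% in Hoxb, 6.78% in Hoxc and 13.3% in Hoxd. When gained cytosines of the same line were joined, within 300 bases and with no other measured cytosine between them, 72 stretches resulted and 67 of them held 1 cytosine, a count not set against other cytosines. A measured cytosine in between splits a stretch, so the 3 Hoxb5 cytosines at 100% count as 2 stretches. The other 5 held 10 cytosines, and lay in Hoxb5, before Hoxa11 and in Hoxd3, a gene of the neck vertebrae. Near Hoxc8, 102987805 was at 54.4% in WT line 2 and at 0% in the other lines, and fell just outside the count with 1.72% in the spermatids.

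**Figure D3:**
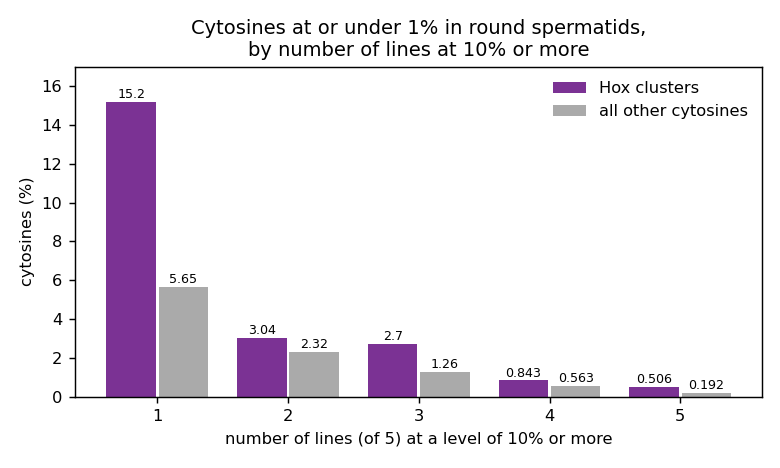
Share of cytosines (%, y axis) at a level of 10% or more in 1 to 5 lines (x axis), for Hox cytosines and for all other cytosines, among those at or under 1% in round spermatids. The Hox share was 15.2% for 1 line and 0.506% for 5 lines, against 5.65% and 0.192% for the others, not matched for density of measured cytosines.

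Gains in single lines were spread over further genes. In Hoxb7, a gene of the kidney and the thorax, 6 of 12 cytosines were single-line gains, in DKO line 1, DKO line 2, WT line 1 and WT line 2, and none passed 21.7%. In Hoxb2, a gene of the hindbrain, 96352169 was at 26.9% in DKO line 2 and at 0.529% or less in the other libraries. Near Hoxa10, 52229393 was at 73.1% in WT line 1 and at 0.971% or less elsewhere, and 52239696 in the gene was at 55.8% in WT line 2. Hoxd11, a gene of the forearm, had 20% of 25 reads at 74684044 in DKO line 1 and 0% elsewhere, and Hoxc9 had 15.9% at 102976761 in WT line 1 and 0% elsewhere. Within the span of Hoxa3, 52170608 was at 72.9% and 52200590 at 43.3% in DKO line 3, and 52212037 at 58.2% in DKO line 1. Of the 34 genes, 29 had a cytosine at 10% or more in a line and 21 had one at 25% or more. These counts were not set against other genes, and the 34 genes had between 2 and 49 assigned cytosines.

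Isolated methylated cytosines were those at 25% or more in a library whose nearest measured neighbours on both sides, within 500 bases, were under 5% in the same library. Of 441 Hox cytosines with such neighbours, 28 were isolated in at least 1 library, or 6.35%, against 3.54% of all cytosines. These shares were not matched for density either. In 25 of them this held in 1 library and in 3 of them in 2 libraries. None was isolated in the spermatids, while DKO lines 1, 2 and 3 had 6, 5 and 9 and WT lines 1 and 2 had 8 and 3. Hoxa held 12, Hoxb 7, Hoxd 7 and Hoxc 2.

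The region before Hoxa11, a gene of the forearm and the uterus, showed how close such sites can lie. At 52246284, 474 bases from the gene, DKO line 3 was at 25.2% and the other lines and the spermatids were at 0%. At 52246294, close by, WT line 1 was at 68% and the others were at 0%. Both cytosines had the same read counts in each library, 124, 139 and 476 in DKO lines 1, 2 and 3, 363 and 177 in WT lines 1 and 2 and 265 in the spermatids. At 52246391 DKO lines 2 and 3 were at 39.5% and 68.2% while DKO line 1, both WT lines and the spermatids were at 0%. At 52246413 and 52246449 WT line 1 was at 44.6% and 44.3%, and DKO line 3 was at 19.1% at the second. In Hoxb8, a gene of the thoracic spinal cord, 96283200 was at 33.3% in DKO line 1 and 0% in the other 5 libraries. In Hoxd9, a gene of the limb and the spinal cord, 74698184 was at 37.6% in DKO line 1 and at 0.0404% or less in the other libraries, on at least 518 reads.

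The printed promoters were chosen for such cytosines, so they illustrate the pattern and do not test it. Of the 24 Hox promoters, 7 had a measured cytosine. Those not printed, of Hoxd11, Hoxd1, Hoxa5 and Hoxb1, were at 3.43% or less at each measured cytosine in every library. In Hoxd12 the first capital, at -207, was at 60.8% in DKO line 1 and 0% in the other libraries, on 16 to 199 reads. The second, at -170, was at 21.6%, 1.94% and 68.7% in DKO lines 1, 2 and 3, at 47.1% and 0% in WT lines 1 and 2 and at 0% in the spermatids. Both groups of lines thus held high and low values. The capitals at 23 and 46 bases after the start were at or under 0.0833% in every library.

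In the Hoxa11 promoter the cytosines at -226 and -232 were both at 14% in WT line 1, where the one at -218 was at 0% on 515 reads. The other libraries were at 1.02% or less at all 6 measured cytosines. In the Hoxa11os promoter, 12 cytosines were measured. The one at -202 was at 47% in DKO line 2, and the next at -195 was at 0% there. The one at -172 was at 15.6% in DKO line 2, and the one at -161 was at 22.5% in WT line 1 and 10.3% in WT line 2. The spermatids were at 0.268% or less at all 12. In Hoxd9 the cytosine at 17 bases after the start was at 19.7% of 563 reads in WT line 1, and the 5 others in that line were at 0.178% or less on the same number of reads.

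**Figure D4:**
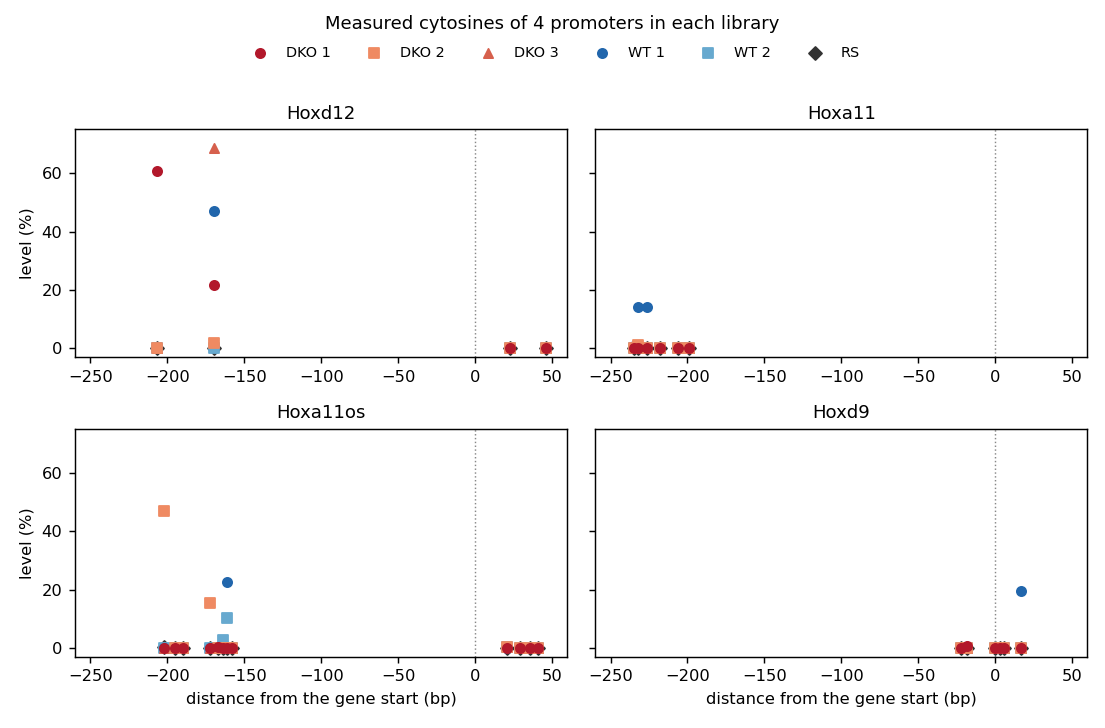
Level (%, y axis) of each measured cytosine against its distance from the gene start (bp, x axis) in the promoters of Hoxd12, Hoxa11, Hoxa11os and Hoxd9, 1 point per library. Single cytosines stand out in some lines, such as 60.8% in DKO line 1 in Hoxd12, where the next measured cytosine was at 21.6% in that line.

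Some positions were methylated in most or all lines and not in the spermatids. Joining cytosines at 10% or more in at least 3 lines within 300 bases gave 16 stretches with 28 such cytosines, of which 24 were at or under 1% in the spermatids. This definition was made after the values were seen. In Hoxc4, 103027080 was at 19.7%, 56.1% and 73.9% in DKO lines 1, 2 and 3, at 52.4% and 11.1% in WT lines 1 and 2, and at 0% of 191 spermatid reads. Within the long RefSeq span of Hoxa3, a gene of the thymus and parathyroid, 52200483 was at 52%, 21.5% and 22.4% in the DKO lines, 24.4% and 15.2% in the WT lines, and at 0% of 409 spermatid reads. All 5 lines were above the spermatids at both sites, with no separation of DKO from WT.

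Further positions methylated in several lines lay in or near Hoxa and Hoxb genes and near Hoxc10. In Hoxa5, a gene of lung development where no cytosine reached 10% in 3 lines, 52202992 was at 8.85%, 42.7% and 0% in DKO lines 1, 2 and 3, at 23% and 0% in WT lines 1 and 2 and at 0% in the spermatids. Between Hoxb6 and Hoxb5, in the antisense gene Hoxb5os, 96302060 was at 44.6%, 61.7% and 0% in the DKO lines, 44.1% and 0% in the WT lines and 0% in the spermatids. At both sites DKO line 3 and WT line 2, the lines named AGH-2, were at 0%. Near Hoxb9, 96269516 was at 7.91%, 16.9% and 2.3% in the DKO lines, 68.6% and 15.1% in the WT lines and 0% in the spermatids. In Hoxa3, 52170455 was at 0%, 60.5% and 44.5% in the DKO lines, 0% and 13.6% in the WT lines and 0.0996% in the spermatids. In Hoxa10, a gene of the uterus and the hindlimb, 52239731 was at 0%, 0% and 31.2% in the DKO lines, 21.7% and 35.8% in the WT lines and 0% in the spermatids. Here the high lines were other ones than in Hoxa3. Near Hoxc10, 102972393 was at 0%, 24.9% and 0.0581% in the DKO lines, 24% and 14.7% in the WT lines and 0% in the spermatids. Beyond Hoxa11, in Hoxa11os, 52249192 was at 10.5%, 14.4% and 40.7% in the DKO lines, 4.42% and 24.8% in the WT lines and 0% in the spermatids.

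A stretch of 47 bases before the microRNA gene Mir196a-1 held 5 measured cytosines, 4 of them at 10% or more in at least 3 lines. MicroRNAs of the miR-196 family lie between Hox genes and repress Hox transcripts such as Hoxb8. Their mature sequences, shown with the seed (bases 2 to 8) in capitals, share that seed and differ elsewhere.
mmu-miR-196a-5p: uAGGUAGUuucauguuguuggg
mmu-miR-196b-5p: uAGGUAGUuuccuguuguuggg
Mir196a-1 and Mir196a-2 encode the same mature miR-196a-5p. The stretch lies 785 to 831 bases before the Mir196a-1 hairpin, at chr11:96264333-96264379, inside the lncRNA gene Gm53. Its 5 cytosines averaged 18%, 29.1% and 6.29% in DKO lines 1, 2 and 3, 34% and 6.01% in WT lines 1 and 2, and 0% in the spermatids on at least 256 reads. At 96264365 DKO lines 1, 2 and 3 were at 28.8%, 45.7% and 31.4%, WT line 1 at 40.8% and WT line 2 at 2.3%, so 4 of the lines shared it. At 96264379 DKO line 1 was at 53.1% and DKO line 3 at 0%. Around Mir196a-2, 8 cytosines within 1 kb averaged 3.23%, 5.05% and 0.0145% in the DKO lines, 5.16% and 2.54% in the WT lines and 0.0356% in the spermatids. Around Mir196b, 13 cytosines averaged 0.0628% or less in the DKO lines, 5.62% and 0.08% in the WT lines and 0.0178% in the spermatids. Only 1 of these 13 reached 10% in any line. With 16 cytosines measured in the 5 lines and reads pooled, a window there had another high line. It was at 0.0433%, 5.69% and 0.0629% in DKO lines 1, 2 and 3 and at 1.23% and 0.789% in WT lines 1 and 2. Mir10a and Mir10b had no measured cytosine within 1 kb.

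Larger stretches in Hoxc lay in Hotair and at the end of Hoxc12. Inside Hotair, a long non-coding RNA gene known in human cells for its link to Polycomb, 6 cytosines at chr15:102945672-102945826 averaged 16.8%, 20% and 9.4% in DKO lines 1, 2 and 3, 14.6% and 13.6% in WT lines 1 and 2, and 0.0457% in the spermatids, with 10 reads at the least. All 5 lines were above the spermatids here. The lines did not share the same cytosines: DKO line 3 was at 56.4% at 102945715, where both WT lines were at 0%, and at 0% at the other 5. At the 3′ end of Hoxc12, 5 cytosines at chr15:102938606-102938787 averaged 0.812%, 32.4% and 12.3% in the DKO lines, 31.5% and 11.7% in the WT lines and 6.98% in the spermatids. At the last of them, 102938787, DKO line 2 was at 89.9%, DKO lines 1 and 3 at 0%, WT lines 1 and 2 at 46% and 57.6% and the spermatids at 0.813%.

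Among the 34 genes Hoxd3 had the most cytosines that reached 10% in a line. Of its 49 cytosines, 28 reached 10% in at least 1 line, 18 reached 25% and 13 were single-line gains. Its mean was 4.69%, 13.1% and 3.03% in DKO lines 1, 2 and 3, 10.6% and 5.1% in WT lines 1 and 2 and 4.77% in the spermatids, so the groups overlapped. At 74741124 on chromosome 2, DKO line 1 was at 99.4% and DKO lines 2 and 3 at 0.245% and 0%, while WT lines 1 and 2 were at 97.1% and 66.4% and the spermatids at 3.68%. The DKO lines held both high and low values there, and both WT lines were high. At 74739232 DKO lines 1, 2 and 3 were at 0%, 97.5% and 56.7%, WT lines 1 and 2 at 54.3% and 64.8% and the spermatids at 36.8%. At the CpG of 74736431 and 74736432, whose strands were both measured, DKO line 2 was at 10.5% and 15.3%, DKO line 3 at 12.8% and 0% and WT line 1 at 0% and 27.5%.

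Most of the remaining Hoxd3 cytosines at 25% or more were high in DKO line 2. Of these, 74736290 was at 35.1%, 74736461 at 25.9%, 74740686 and 74740700 at 41.1% and 74740702 at 51.8% in DKO line 2, and the other libraries were at 5.43% or less at each. At 74736438 DKO line 2 was at 27.4% and the spermatids at 8.57%. At 74747053 DKO line 2 was at 19.2% and WT line 1 at 29.3%, with 0% in the others. DKO line 1 was the high one at 74740634, with 29.6%, and at 74750409 outside the gene, with 30.8%. At 74736410 DKO lines 1, 2 and 3 were at 20.5%, 32.6% and 28.3%, WT lines 1 and 2 at 15.7% and 0% and the spermatids at 0%. At 74736467 DKO lines 1, 2 and 3 were at 17.8%, 34.7% and 14.8%, WT lines 1 and 2 at 2.53% and 28.8% and the spermatids at 0.0132%. At 74739224 the DKO lines were at 3.51%, 68.9% and 15.4%, the WT lines at 48.5% and 51.6% and the spermatids at 17.7%. These last 3 positions were methylated in lines of both genotypes. At 74738763 DKO line 2 was at 11.1%, WT line 1 at 57.3% and the spermatids at 42.3%, with 0% in the other lines.

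Outside Hoxd3, further cytosines at 25% or more were again mostly high in 1 or 2 lines. In DKO line 1, 52239829 in Hoxa10 was at 25.8%, 52244722 in Hoxa11 at 30.6% and 102972524 near Hoxc10 at 25.4%, with at most 9.46% in another library. In DKO line 2, 52170495 in Hoxa3 was at 40.2% and at most 4.75% elsewhere. In DKO line 3, 96332742 in Hoxb3 was at 26.3% and 102938461 in Hoxc12 at 33.7%, with at most 8.29% elsewhere. In WT line 1, 52244693 in Hoxa11 was at 38.8%, 96248802 outside Hoxb9 at 38.4%, 102939793 outside Hoxc12 at 34.8% and 102922699 in Hoxc13 at 25%, with at most 7.14% elsewhere. In WT line 2, 96299275 in Hoxb6 was at 26.1% and 0% elsewhere. Near Hoxc10, 102965746 was at 26.7% in DKO line 2, at 91.7% of only 12 reads in WT line 1 and at 7.56% or less elsewhere. Several were shared. In Hoxa2, 52163338 was at 22.4% in DKO line 2 and 27.8% in WT line 1, and 52163387 was at 26.6% and 20.3% in WT lines 1 and 2 and 3.6% or less in the DKO lines. In Hoxa5, 52202979 was at 36.3% in DKO line 2 and 18.6% in WT line 1. In Hoxc4, 103027033 was at 15.9% in DKO line 2 and 34.8% in WT line 1. Near Hoxb9, 96264361 was at 16% in DKO line 2 and at 27.5% and 10.1% in WT lines 1 and 2, and 96269508 was at 20.9% in DKO line 1, 68.6% in WT line 1 and 14.6% in the spermatids. Outside Hoxc12, 102938632 was at 25.4% and 39.3% in DKO lines 2 and 3 and 57.6% in WT line 1, and 102938759 was at 27.7% in DKO line 2 and 16% in WT line 1. At 102945819 in Hotair DKO line 1 was at 30.8% and WT lines 1 and 2 at 23.2% and 43.5%.

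Methylation present in the spermatids and absent from the lines was found at few positions. Of the 15 Hox cytosines at 10% or more in the spermatids, 5 were under 1% in every line. Outside Hoxb9, 20645 bases from it, 96250685 was at 79.4% of 63 spermatid reads and at 0% in all 5 lines. Near Hoxc12, 102933752 and 102933881 were at 88.4% and 58% in the spermatids and at 0% in all 5 lines. In Hoxd3, 74738736 was at 37.1%, and near Hoxa9, 52228130 was at 50% in the spermatids with 0.556% at most in a line. At 96339952 in Hoxb3 all 3 DKO lines were at 0%, on 67, 142 and 17 reads, while WT lines 1 and 2 were at 100% and 53.4% and the spermatids at 77%.

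The other spermatid-methylated cytosines were also methylated in part of the lines. In Hoxd3, 74738757 was at 0.361%, 16.5% and 0% in DKO lines 1, 2 and 3, at 57.1% and 0% in WT lines 1 and 2 and at 42.3% in the spermatids. At 74739199 the DKO lines were at 2.84%, 48.4% and 0%, the WT lines at 42.3% and 5.58% and the spermatids at 44.1%. DKO line 2 and WT line 1, which share the name OG3, were the lines above 10% at both. In Hoxc4, 103028046 was at 0%, 27.3% and 0% in the DKO lines, 1.92% and 0% in the WT lines and 38.9% in the spermatids, on 22 to 104 reads. Of the 34 genes, Hoxa9, Hoxb3, Hoxb9, Hoxc4, Hoxc12 and Hoxd3 had a cytosine at 10% or more in the spermatids.

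By a rule of size, lines and spermatids were set apart where the mean of the 5 lines differed from the single spermatid library by at least 25 points and every line lay on the same side. Lines were higher at 5 of 619 Hox cytosines, or 0.808%, against 0.333% of all cytosines. Without DKO line 3 the count was 9. Lines were lower at 6, or 0.969%, against 21.2% of all. A drop of that size needs a spermatid level of at least 25%, reached by 12 Hox cytosines and by 55931 of the 232221 others. Few Hox cytosines could thus be lower by this rule, and the shares of lower tiles and windows below are limited in the same way. Of 83 tiles of 500 bp with at least 3 cytosines, 0 were higher, against 0.437% of all tiles, and 2 were lower, against 25%. The lower tiles were that at 102933501 near Hoxc12, with 34.2% in the spermatids and at most 0.139% in a line, and that at 74738501 in Hoxd3, with 0.156%, 13.4% and 0% in DKO lines 1, 2 and 3, 40.8% and 0% in WT lines 1 and 2 and 41.2% in the spermatids. Of 14 promoter windows, 0 were higher, against 0.0579% of all windows, and 0 were lower, against 2.51%. Single-line gains over whole tiles numbered 7 of 77 Hox tiles at or under 1% in the spermatids, or 9.09%, against 2.63% of all such tiles. The tiles were not matched for density of measured cytosines.

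The DKO and WT lines overlapped in every cluster. Over the 4 clusters the DKO lines averaged 2.53% ± 0.7 (SD, n = 3) and the WT lines 3.15% ± 1.86 (SD, n = 2), a difference of -0.619 points (exact two-sided permutation test, p = 0.7). The differences were 0.112 points in Hoxa (exact p = 0.8), -1.85 points in Hoxb (exact p = 0.4), -0.687 points in Hoxc (exact p = 0.6) and -0.0338 points in Hoxd (exact p = 1). Adjusted over the 5 comparisons each p was 1, and 3 lines against 2 cannot go below 0.1. Without WT line 1 the difference over the 4 clusters was 0.915 points, with the other sign.

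Promoter windows, 1 kb before to 0.5 kb after a gene start or the end richer in measured cytosines, could be tested for 15 of the 38 genes, and 23 had fewer than 3 measured cytosines. The level of a window or tile is its methylated reads over all its reads, so deeper cytosines weigh more than in the means above. The edgeR quasi-likelihood test called 0 of the 15 at an adjusted p under 0.05, where 0% of 10134 windows were called. The lowest Hox adjusted p was 0.969. At an unadjusted p under 0.05 there were 0 Hox windows, against 2.65% of all, and limma called 0. The median difference was 0.0771 points over the Hox windows and 0.0108 points over all windows. DKO and WT values did not overlap in 2 windows, Hoxd12 and Hoxd1, both higher in DKO, against 17.3% of all windows.

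Windows with a library at 5% or more were those of Hoxd12, Hoxa11, Hoxb7, Hoxb6 and Hoxc12. Hoxd12 was at 11.1%, 4.39% and 8.61% in DKO lines 1, 2 and 3 and at 1.85% and 4.34% in WT lines 1 and 2, so the groups were separated by a narrow gap (edgeR unadjusted p = 0.336, adjusted p = 0.969). Hoxa11 was at 0.0326%, 2.12% and 6.31% in the DKO lines and 5.2% and 0.00425% in the WT lines. Hoxb7 was at 6.22% in DKO line 3 and at 0.102% or less in the other 4 lines. The groups overlapped in both. Hoxb6 was at 19.5%, 35.8% and 0% in the DKO lines and 16.1% and 0% in the WT lines. Hoxc12 was at 4.47%, 21.8% and 22.5% in the DKO lines and 17.5% and 4.06% in the WT lines. By the direction of transcription of their clusters, these last windows lie at the 3′ ends of Hoxb6 and Hoxc12.

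The other 10 windows were low. Hoxa4, which had no assigned cytosine because its window falls on the span of its neighbour, was at 0.0503%, 0% and 0% in DKO lines 1, 2 and 3 and at 0% and 2.26% in WT lines 1 and 2. Hoxb13, Hoxc9, Hoxc10 and Hoxd9 each had at least 1 line between 1% and 2%. Hoxb9, Hoxc13, Hoxd1, Hoxd8 and Hoxd13 were at 0.395% or less in every line. Hoxc13, a gene of the hair follicle, had 24 cytosines in its window and at most 0.0298% in any line.

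Of 86 Hox tiles, 81 could be tested and 0 were called by edgeR, where 0% of 29763 tiles were called. At an unadjusted p under 0.05 edgeR had 3, 1 higher and 2 lower in DKO, against 2.22% of all tiles, and limma called 0 with 4 at that level. DKO and WT values did not overlap in 9 tiles, 5 higher and 4 lower, against 14.9% of all. The lowest unadjusted edgeR values were in the tile at 96299001 in Hoxb6 and the tile at 96320001 in Hoxb4, a regulator of blood stem cells. In Hoxb6 the tile of 12 cytosines was at 0.0132%, 0.0802% and 0% in DKO lines 1, 2 and 3 and at 1.58% and 3.99% in WT lines 1 and 2 (edgeR unadjusted p = 0.00478, adjusted p = 1). In Hoxb4 all 3 DKO lines were at 0%, and WT lines 1 and 2 were at 5.39% and 2.19% (edgeR unadjusted p = 0.0066, adjusted p = 1). In the Hoxb4 tile 96320262 carried 9.01% in WT line 1 and 10.9% in WT line 2, and the 3 DKO lines had 0% on 88, 373 and 372 reads. Among tiles whose groups did not overlap, the widest gap between group means was in Hoxa2, a gene of the hindbrain and the second pharyngeal arch, where the tile at 52163001 was at 0%, 6.22% and 0.163% in the DKO lines and 25.6% and 18.5% in the WT lines (edgeR unadjusted p = 0.0574, adjusted p = 1).

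By paralogue position the lines were highest in group 12, at 5.93% ± 1.92, group 5, at 5.87% ± 9.7, and group 3, at 5.19% ± 1.78 (SD, n = 5 each). The value of group 5 rested on WT line 1, at 22.8%, while DKO lines 1, 2 and 3 had 1.2%, 5.32% and 0.0457% and WT line 2 had 0.02%. The spermatids were highest in group 12, at 5%, and group 3, at 2.94%, and at 0% in group 5. The line values of groups 12, 5 and 3 overlapped, so their order is not beyond the spread. Group 3 also takes in cytosines near neighbouring genes, because the spans of Hoxa3, Hoxb3 and Hoxd3 are long. The groups were not matched for density of measured cytosines. Hox cytosines in tiles with at least 10 averaged 1.07% in the lines and those outside 3.59%. The part of density in the order of the groups was not tested.

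Group 13, the genes of the tail end and of the genitalia and prostate, was lowest, at 0.325% ± 0.378 over 104 cytosines, with 0.0519%, 0.356% and 0.145% in the DKO lines, 0.969% and 0.103% in the WT lines and 0.031% in the spermatids. Its 4 members all lay under 2% in every library, with Hoxa13 at up to 1.89% in WT line 1, Hoxb13 at up to 1.05%, Hoxc13 at up to 0.829% and Hoxd13 at up to 0.505%. Group 8 followed at 0.561% ± 0.61 and group 1, whose genes pattern the hindbrain, at 1.02% ± 1.57. The line values of groups 13, 8 and 1 overlapped, so their order is not beyond the spread. Group 13 was lowest in no single library. Group 1 had 0.0397% in DKO line 1, and group 8 had 0.0522% in DKO line 2 and 0.0127% in WT line 1. Group 7 had 0.0236% in DKO line 3, and group 5 had 0.02% in WT line 2 and 0% in the spermatids. In group 1, Hoxb1 was at 3.13% and 9.84% in WT lines 1 and 2 and at 0.0631% or less in the DKO lines, on 3 cytosines, and Hoxd1 at 0.139% or less in every library.

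**Figure D5:**
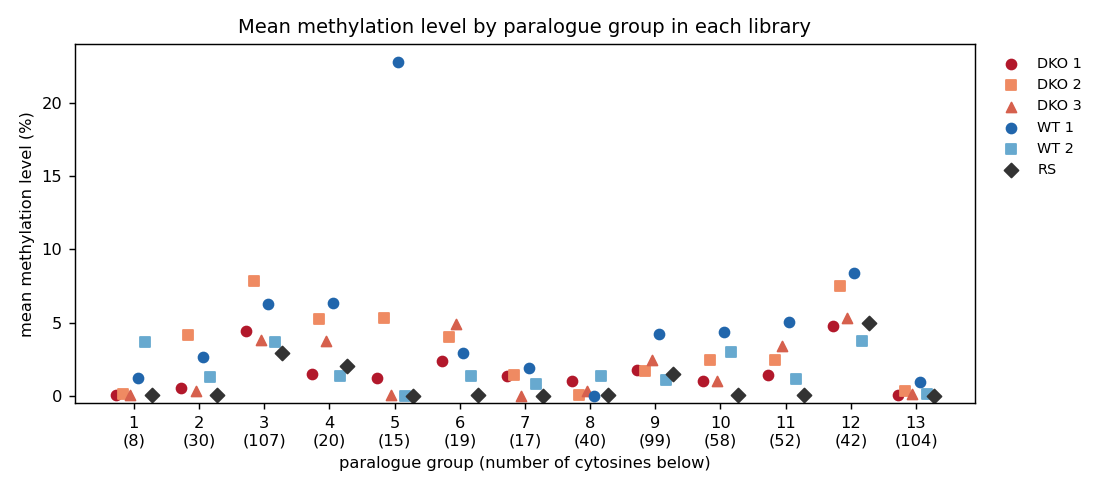
Mean methylation level (%, y axis) of the cytosines assigned to each paralogue group (x axis, with the number of cytosines), 1 point per library. Group 13 lay under 1% in all libraries, and WT line 1 reached 22.8% in group 5.

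The intermediate groups were between these. Group 4 averaged 3.62% ± 2.23 in the lines and 2.01% in the spermatids, group 6 3.12% ± 1.39 and 0.0732%, and group 11 2.7% ± 1.59 and 0.0312%. Group 10 averaged 2.36% ± 1.39 in the lines and 0.0614% in the spermatids, group 9 2.25% ± 1.2 and 1.52%, group 2 1.81% ± 1.61 and 0.0534%, and group 7 1.12% ± 0.726 and 0.011%. Within a group the genes differed. In group 5, Hoxa5, a gene of lung development, was at 8.83%, 39.5% and 0% in DKO lines 1, 2 and 3 and 20.8% and 0% in WT lines 1 and 2 on 2 cytosines, with 0% in the spermatids. In group 12, Hoxc12 averaged 5.82% ± 2.59 in the lines and 6% in the spermatids, and Hoxd12 6.51% ± 4.41 and 0%. In group 9, Hoxb9 was at 9.81% in WT line 1 and between 1.06% and 4.23% in the other lines. In group 10, Hoxc10 averaged 3.08% ± 2.14 in the lines and 0.108% in the spermatids and Hoxd10 0.0872% ± 0.148 and 0.0381%, so the members of a group did not share a level.

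Genes that act with the clusters were counted from lists, and limma, like edgeR, called 0 of all windows. Of 9 Hox cofactors of the Pbx, Meis and Pknox families, which bind DNA together with Hox proteins, 6 had a window. Of these, 0 of 5 tested were called by edgeR and 1 had an unadjusted p under 0.05. Among all windows 2.65% had such a p, the share to set beside each list below. Pknox1 was at 1.39%, 0.262% and 0.0569% in DKO lines 1, 2 and 3 and 0.0228% and 0.0235% in WT lines 1 and 2 (edgeR unadjusted p = 0.0407, adjusted p = 0.969). Meis1 was at 5.02% in DKO line 2 and 0.12% or less in the other lines. Of 26 Polycomb and Trithorax genes, which repress and maintain Hox expression, 19 had a window, 0 of 17 tested were called, 0 had an unadjusted p under 0.05, and their mean was 0.0666% ± 0.0715 in the lines and 0.168% in the spermatids. Kmt2b, a histone methyltransferase of the Trithorax group, was highest, at 2.47% in DKO line 2 and 2.54% in the spermatids.

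Of 13 ParaHox genes and neighbours of the clusters, 10 had a window, 0 of 9 tested were called and 1 had an unadjusted p under 0.05. Cdx4, a regulator of Hox genes, was at 5.86%, 10.9% and 5.89% in DKO lines 1, 2 and 3 and 0% and 1.39% in WT lines 1 and 2 (edgeR unadjusted p = 0.0474, adjusted p = 0.969). The groups did not overlap there, as in 17.3% of all windows. Of 12 RNA genes inside the clusters, 7 had a window, 0 of 7 were called and 0 had an unadjusted p under 0.05. Their mean was 3.59% ± 2.52 in the lines and 0.0192% in the spermatids. That mean rested largely on Mir196a-1, the only 1 of them with a line at 10% or more. Mir196a-1 was at 17.4%, 29.6% and 6.63% in DKO lines 1, 2 and 3 and at 34.3% and 5.83% in WT lines 1 and 2.

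Marker promoters were read beside these values, since the lines grew on feeder cells. Of 15 pluripotency genes, 5 had a window, with means of 0.0115% to 0.0763% in the lines and 1.6% in the spermatids. The spermatid mean rested largely on Utf1, at 7.13%, while the other windows were at 0.775% or less there. Of 10 germ cell genes, 6 had a window, with means of 6.52% to 24.1% in the lines and 0.118% in the spermatids. Their genes differed. Stra8 was at 85.5% in WT line 1 and at 0% in DKO line 1 and WT line 2. Taf7l was at 11.3% to 42.7% in the lines, and Ddx4 at 3.35% or less. Of 11 fibroblast genes, 4 had a window, with means of 2.78% to 15.3% in the lines and 0.0172% in the spermatids. Pdgfrb was at 52.2% in DKO line 1 and 0.134% in DKO line 2, and Twist2 at 7.83% to 15.7% in the lines. Vim and Twist1 were at 0.157% or less in every line. No window of these lists was called between DKO and WT, where 4, 6 and 4 could be tested and 0 had an unadjusted p under 0.05. The part of feeder cells or of other cells in the Hox levels was not tested.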

How the data were processed

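DNA methylation was measured by RRBS in 3 DKO lines, 2 WT lines and 1 library of round spermatids. Per the labels' protocols, MspI-digested DNA was end-repaired, ligated to methylated adapters, size-selected on a gel, bisulfite-treated and amplified. Bismark 0.12.2 and the build mm10 come from the submitters' processing notes. How reads were trimmed or duplicates removed is not given in the sources used here. The deposited files list each cytosine with its methylated count, its unmethylated count and a level, which the authors give as a fraction. PCR copies would be counted as reads.

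From these counts, cytosines with at least 10 reads in every compared library were kept. All 116290 positions inside RefSeq promoters lay on a CpG. Windows and tiles needed 3 cytosines. DKO and WT were compared with edgeR 4.0.16 (quasi-likelihood test on methylated and unmethylated counts, Benjamini-Hochberg adjustment over all regions), with limma 3.58.1 on arcsine levels as an alternative, and by exact permutation of cluster means. With 1 spermatid library, lines and spermatids were compared by rules of size, with no p-value. The test script was checked on simulated data. R 4.3.3 and Python 3.11.15 were used. The edgeR and limma calls used 5 lines. Alternatives changed the minimum reads, the number of cytosines, window and tile sizes, the cluster margin, the weighting, the limits of each rule and the lines included, or blocked by the line name that WT and DKO lines share (OG3, AGH-2). Median depth over Hox cytosines was 319 to 567 reads per library.

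The 38 genes were accounted for. Windows were described where a library reached 5%, and cytosines of 25% or more by position or distance from the gene start. Some of these cytosines, such as 96264333 near Hoxb9, were given only as part of a stretch. At most 4 genes, those with the largest library values, were named from each other list. Genes, lists and rules were chosen with earlier results of these data known. Of 39 genes, 1 is not reported here: its 8 nearest cytosines are in the cluster totals, in no gene or paralogue value, and are not described singly. Gene spans and promoters came from RefSeq for GRCm38.p6, whose gene table gives no strand, so where no promoter was listed the end richer in measured cytosines was used. The spans of Hoxa3, Hoxb3, Hoxc4 and Hoxd3 are long and cover neighbouring genes.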

Additional observations from a re-analysis of the deposited data

Results flagged for a closer look

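Among 18 sets of 5 line values, the means of each cluster, of the 4 together and of the 13 paralogue groups, 2 had a line far from the others by Dixon's criterion at the 95% level. Chance flags about 1 in 20 sets, and the 5 lines combine 2 genotypes. The mean of Hoxb was 5.79% in WT line 1, against 0.849% to 2.21% in the other lines. The mean of paralogue group 5 was 22.8% in WT line 1, against 0.02% to 5.32% in the other lines. Both sets contain the 3 Hoxb5 cytosines at 100% in that line.

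Cytosines that had 10 reads in a library but not in all 6 were not used in the comparisons above. In Hoxa their mean over the 5 lines was 2.92%, with each line above the 1.17% of the spermatids, between 2.05% and 3.61%. In Hoxb, Hoxc and Hoxd the lines lay on either side of the spermatids.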

How the results depend on the processing

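No Hox window or tile was called at an adjusted p under 0.05 under any alternative run: minimum 5 or 20 reads, other window and tile sizes, at least 1 or 5 cytosines, the replicate block, limma, each line left out, or the gene start by cluster strand, which was chosen after seeing the data. With the replicate block by line name 0 Hox windows and 0 Hox tiles were called, against 17 windows and 2 tiles among all. Deviations from the group means over tiles correlated at 0.138 (OG3) and 0.0742 (AGH-2) between lines of the same name, and at -0.138 to 0.0637 between the other DKO and WT lines, where with 2 WT lines the values mirror each other. The labels do not say that these lines are related. Among all regions limma called 4 tiles, and edgeR without DKO line 1 called 1 window. The DKO minus WT difference of means had no stable sign. With one line left out it ranged from -1.84 to 0.915 points over the 4 clusters, -0.589 to 1.18 in Hoxa, -3.96 to 0.525 in Hoxb, -1.9 to 0.781 in Hoxc and -0.823 to 1.12 in Hoxd. With reads pooled it was -0.19 in Hoxa, 0.0546 in Hoxc and 0.656 in Hoxd. The block gave 0.131 points in Hoxd, and a minimum of 5 reads gave 0.00543 there. The cause was not tested. The Hox mean minus other cytosines turned to 2.39 points against tiles of at least 10 measured cytosines, and to 0.683 with both sides so limited, an alternative added after seeing the data. Hox cytosines higher in lines than spermatids numbered 9 at a difference of 10 points, and 4 to 9 with one line left out. Single-line gains numbered 32 at 25% or more, and isolated cytosines 7 at 50% or more, where stricter limits can only lower the count. The other 143 of 162 alternative values kept their side, sign or size.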
